A study of Gallus gallus with 5 samples.

Results

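Solute carriers are the membrane proteins that move amino acids, sugars, metals, organic anions and other small molecules into and out of cells and organelles without spending ATP directly. The genes described here are the entries of a liver count table whose symbol begins with SLC or SLCO followed by a number, apart from the carnitine carrier SLC22A5, and which had at least 10 counts in 2 or more of 5 hens. There were 63 such genes among the 6286 entries. The rule used name and count alone, but it was set with earlier results of these data known. The carriers that fell short are described at the end of the comparison. One of the 63, SLC9A3R1, encodes a scaffold protein (NHERF1) that anchors transporters and is no carrier itself, so it stands apart from the subfamilies.

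The livers came from hens of broiler breeder stock, the birds whose eggs give rise to meat chickens, which are usually held on rationed feed. From 38 weeks of age 2 hens received feed ad libitum (FF1 and FF2) and 3 received a restricted allowance (RF1, RF2 and RF3). A library stands for a single hen. The labels used here leave out how large the allowance was, how long it lasted and when the livers were taken. The extraction protocol speaks of 3 hens per group, and the further FF hen was not analysed here.

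The liver takes up amino acids, sugars and bile acids from blood, and sends out glucose, ketone bodies, urate and the yolk precursors of the laying hen. Its carriers fall into groups by substrate. At the plasma membrane, SLC2 proteins let hexoses pass, SLC7 and SLC38 proteins move amino acids, SLC16 proteins move lactate, pyruvate and ketone bodies with protons, and SLCO proteins move bulky organic anions, hormones and prostaglandins. Inside the cell, SLC25 proteins carry metabolites across the inner mitochondrial membrane, SLC35 proteins supply nucleotide sugars to the Golgi and endoplasmic reticulum, and the SLC30 and SLC39 families lower and raise cytosolic zinc.

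Library totals ranged from 2666609 (FF2) to 4622392 (FF1) estimated counts. The 63 genes together took 0.785% of the counts in FF1 and 0.561% in FF2, against 0.763%, 0.826% and 0.840% in RF1, RF2 and RF3, with 95% Wilson intervals that cover counting error only and span 0.552% to 0.570% for FF2 and 0.832% to 0.849% for RF3. FF2 therefore gave the smallest share to these genes. This hen also stood apart across all genes, at 44.5 on a first principal component that held 50.7% of the variance, with the remaining hens at -28.0 to -1.75. Of the hepatocyte markers, 9 of 10 were above 0 and ALB was listed at 0 in every hen, and their summed level was 115056 to 140768 CPM (counts-per-million of the library size after scaling by the trimmed mean of M values). Below, levels are in CPM, which is not divided by transcript length, so levels of different genes are not compared. Fold changes are log2 values of FF over RF with their standard error (SE), and p-values come from edgeR's quasi-likelihood test with Benjamini-Hochberg adjustment over all 4309 genes tested.

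No carrier passed the adjusted threshold of 0.05 by the quasi-likelihood test, and the clearest differences were lower levels of organic anion carriers in FF hens. The call rate over all genes was 0.0464% (2 genes), and the smallest adjusted p of the 63 carriers was 0.211. DESeq2 called 2 carriers lower and 0 higher, SLC16A1 and SLCO2A1, against background rates of 1.11% of genes lower and 0.72% higher, and limma-voom called 0. At an unadjusted p under 0.05 by the quasi-likelihood test, 5 carriers lay lower in FF (SLC16A1, SLCO2A1, SLCO4A1, SLC35C2 and SLC7A5), where 4.94% of all genes did, and 2 lay higher (SLC25A15 and SLC9A8), where 4.41% did. These shares were 7.94% and 3.17% of the carriers. An absolute log2 fold change of at least 1 was reached by 4 carriers (6.35%, against 8.54% of all genes), SLC16A1, SLCO2A1, SLC25A15 and SLC25A26. Both FF hens lay below all 3 RF hens in 14 carriers (22.2%, against 13.9% of all genes) and above them in 5 (7.94%, against 13.1% of all genes). Without FF2 the share below was 25.4%, against 25.6% of all genes, and the share above 33.3%, against 26.2%.

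How many carriers lay above or below 0 depended on hen FF2 and on the scaling, while their distance from all genes changed little with the scaling. Of the 63 genes, 23 had a log2 fold change above 0 and 40 below, with a median of -0.12, where 50.6% of all genes tested lay above 0 and their median was 0.01. Without FF2, 32 lay above 0 and 31 below, with a median of 0.03, and without FF1, 16 lay above and 47 below, with a median of -0.47. With library totals as the only scaling, the median of all genes was 0.11 and that of the carriers -0.01, a distance of -0.12 from all genes beside -0.13 with the main scaling, and 31 carriers lay above 0 and 32 below. A carrier level in whole liver cannot tell fewer cells of a type from less RNA per cell.

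**Figure D1:**
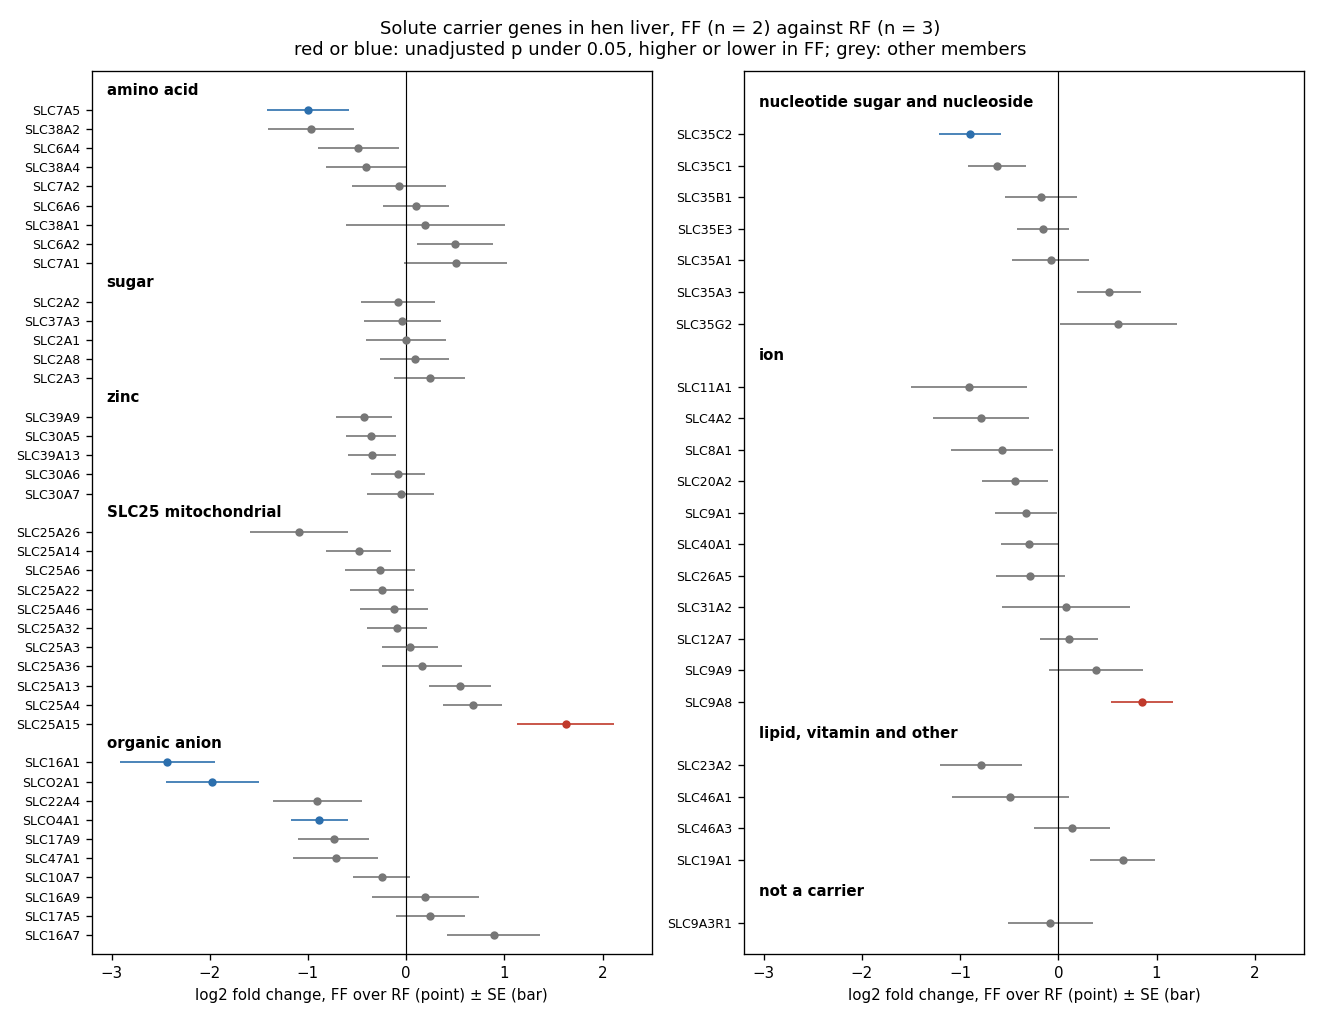
Log2 fold change of FF (n = 2) over RF (n = 3) for all 63 genes (points) with the standard error (bars), grouped by substrate. The 5 blue genes and 2 red genes had an unadjusted p under 0.05 (edgeR quasi-likelihood), lower and higher in FF, and SLC16A1 at -2.43 and SLC25A15 at 1.62 lay at the ends of the range.

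SLC16A1 encodes the monocarboxylate carrier MCT1, which moves lactate, pyruvate and ketone bodies together with protons and through which liver exports ketone bodies. It stood at 154 CPM in FF1 and 118 CPM in FF2, against 895, 937 and 371 CPM in RF1, RF2 and RF3. Both FF hens lay below every RF hen, and RF3 lay between FF1 and the other RF hens. FF hens averaged 136 ± 25.2 CPM (SD, n = 2), while RF hens averaged 734 ± 315 CPM (SD, n = 3), a level 5.39-fold higher in RF (log2 fold change -2.43 ± 0.48, edgeR quasi-likelihood, adjusted p = 0.211). By unadjusted p it ranked 23 of 4309 genes, and DESeq2 gave it an adjusted p of 3.93e-05. Leaving out any single hen kept the log2 fold change between -2.75 and -2.22.

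Genes that work beside MCT1 lay on both sides of 0. BSG encodes the membrane partner that MCT1 needs to reach the cell surface, and was at 1897 and 1007 CPM in FF hens and 1459, 2153 and 1434 CPM in RF hens (log2 fold change -0.21 ± 0.39, edgeR quasi-likelihood, adjusted p = 0.871). The lactate dehydrogenase gene LDHB was at 921 and 539 CPM in FF hens and 2537, 1772 and 458 CPM in RF hens (-1.12 ± 0.67), and its relative LDHA lay at 0.12 ± 0.43, both with overlapping groups. EMB, another membrane partner of monocarboxylate carriers, was at 3.90 and 3.64 CPM in FF hens and 1.41, 3.52 and 2.80 CPM in RF hens (0.56 ± 0.56). BDH1, which interconverts the ketone bodies, was at 22.4 and 19.6 CPM in FF hens and 12.5, 17.6 and 15.9 CPM in RF hens (0.46 ± 0.30). EMB and BDH1 were thus higher in either FF hen than in any RF hen. For EMB the level was low, and FF2 (3.64 CPM) barely exceeded RF2 (3.52 CPM). These genes were chosen after the carriers' values were seen.

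The remaining SLC16 members were low. SLC16A7, the high-affinity carrier MCT2, lay in the opposite direction to SLC16A1, at 4.72 and 3.9996 CPM in FF hens and 2.35, 2.35 and 2.34 CPM in RF hens. Its FF values came from 23 and 11 counts and its RF values from 8 to 10 counts, so the difference of 0.89 ± 0.47 on the log2 scale (edgeR quasi-likelihood, adjusted p = 0.582) rests on few reads. SLC16A9 (MCT9) had 6 to 22 counts a hen and overlapped between groups.

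The organic anion transporting polypeptides SLCO2A1 and SLCO4A1 lay lower in both FF hens. SLCO2A1, which takes up prostaglandins for breakdown, stood at 73.8 CPM in FF1 and 45.8 CPM in FF2, against 120 CPM in RF1, 298 CPM in RF2 and 289 CPM in RF3. RF1 lay well below the other RF hens and still above both FF hens. The means were 59.8 ± 19.8 CPM (SD, n = 2) and 236 ± 101 CPM (SD, n = 3), a level 3.93-fold higher in RF (log2 fold change -1.97 ± 0.48, edgeR quasi-likelihood, adjusted p = 0.314; DESeq2, adjusted p = 0.00486). With each hen left out in turn the value ranged from -2.37 to -1.66. In mammals this carrier is abundant in endothelium. The 3 endothelial markers measured (CDH5, KDR and LYVE1, of 7 listed) summed to 161 and 202 CPM in FF hens and 271 to 318 CPM in RF hens, all of them above 0, and their part in the SLCO2A1 difference was not tested. HPGD, which degrades prostaglandins inside the cell and was chosen after the carriers' values were seen, lay at 77.1 and 55.6 CPM in FF hens and 103, 108 and 178 CPM in RF hens (-0.96 ± 0.35, edgeR quasi-likelihood, adjusted p = 0.485). Of the other prostaglandin genes chosen in the same way, PTGR1, which also degrades them, lay at 0.32 ± 0.30 and PTGS2, which makes them, at 0.11 ± 0.36, both with overlapping groups.

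SLCO4A1, which accepts thyroid hormones and other organic anions in mammals, differed by less but varied little within groups. It stood at 264 and 327 CPM in FF hens and at 613, 538 and 482 CPM in RF hens, so the groups did not overlap. The means were 295 ± 44.1 CPM (SD, n = 2) and 544 ± 65.9 CPM (SD, n = 3), which on the log2 scale was -0.88 ± 0.29 by edgeR's quasi-likelihood test (adjusted p = 0.457) and between -1.03 and -0.74 with single hens left out.

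**Figure D2:**
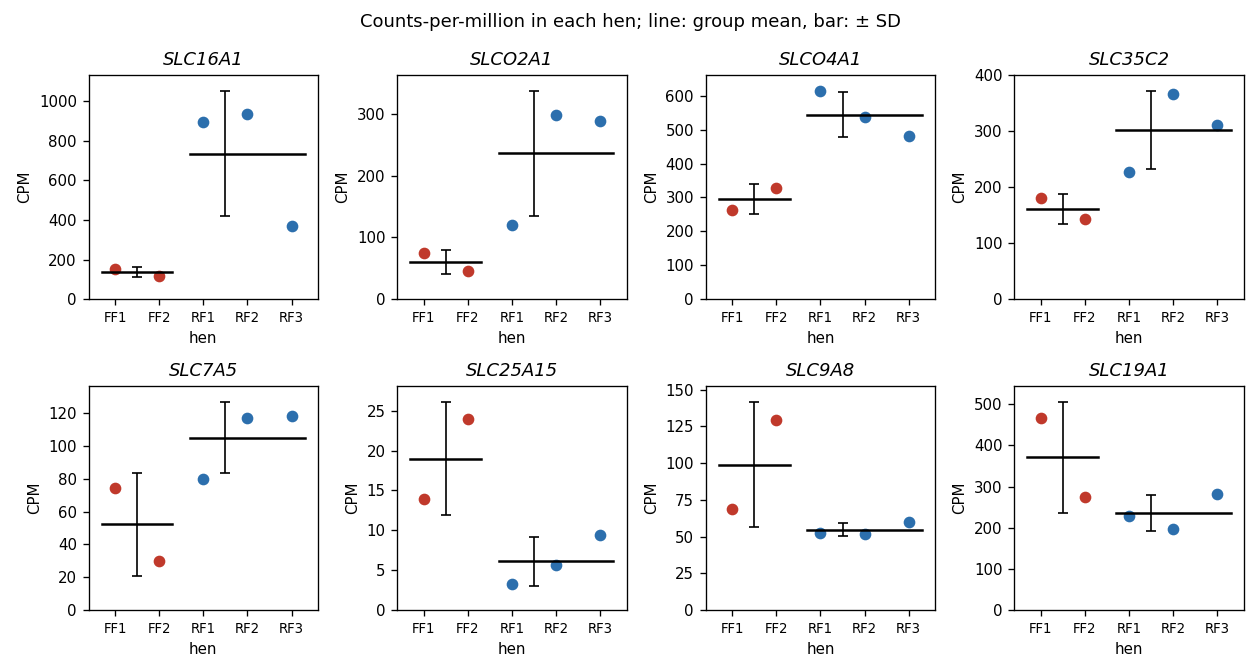
Level in CPM of 8 carriers in each hen (red, FF; blue, RF), with the group mean (line) and SD (bar). In SLC16A1, SLCO2A1, SLCO4A1, SLC35C2 and SLC7A5 both FF hens lie below all RF hens, in SLC25A15 and SLC9A8 both lie above, and in SLC19A1 FF2 overlaps RF3.

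The other organic anion carriers lay mostly below 0. The group follows SLC family rather than each substrate. It therefore includes SLC47A1 (-0.72), a carrier of organic cations, and the ergothioneine carrier SLC22A4 (-0.90). Of the 10 genes in this group 7 lay below 0, the median was -0.73, and in 5 both FF hens were below all RF hens (SLC16A1, SLCO2A1, SLCO4A1, SLC17A9 and SLC10A7, against 13.9% of all genes), while the median was -0.31 without FF2. SLC17A9, which loads ATP into vesicles, stood at 91.5 and 52.0 CPM in FF hens and 111, 158 and 91.6 CPM in RF hens (-0.74 ± 0.36, edgeR quasi-likelihood, adjusted p = 0.574), so FF1 and RF3 were nearly equal. SLC22A4, a relative of SLC22A5 that takes up ergothioneine, was at 18.5 CPM in FF1 and 7.999 CPM in FF2, against 17.1 to 33.2 CPM in RF hens, and SLC47A1, which expels organic cations, at 31.0 and 10.9 CPM against 30.4 to 38.8 CPM. In both genes FF1 lay inside the RF range and FF2 below it. SLC17A5, the lysosomal sialic acid exporter, and SLC10A7, of the bile acid carrier family, lay at 0.25 ± 0.35 and -0.25 ± 0.29.

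Amino acid carriers split between lower and higher values. Of 9 genes 4 lay above 0 and 5 below, with a median of -0.07. SLC7A5, the light chain of the large neutral amino acid exchanger LAT1, was at 74.5 and 29.8 CPM in FF hens and at 80.03, 117 and 118 CPM in RF hens, which on the log2 scale was -0.99996 ± 0.42 by edgeR's quasi-likelihood test (adjusted p = 0.525). FF1 lay just under RF1 and FF2 far under it, and the value was -0.48 without FF2 and -1.82 without FF1. SLC38A2, a sodium-coupled carrier of small neutral amino acids that mammalian cells raise when amino acids are scarce, was at 80.6 CPM in FF1 and 133 CPM in FF2, with RF1, RF2 and RF3 at 177, 135 and 317 CPM (-0.97 ± 0.44, edgeR quasi-likelihood, adjusted p = 0.553). FF2 and RF2 were all but level, and without RF3 the log2 fold change was -0.54.

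Hen RF3 was the highest of the 5 for SLC38A2, SLC38A4 and SLC7A2. SLC38A4, a liver carrier of neutral amino acids from the same family as SLC38A2, was at 1510 CPM in RF3 and between 687 and 807 CPM in the other 4 hens. SLC7A2, the cationic amino acid carrier CAT2, was at 101 CPM in RF3 and 31.7 to 73.2 CPM elsewhere. For both genes the groups overlapped, and SLC38A4 at -0.41 ± 0.41 was 0.030 without RF3. The taurine carrier SLC6A6 lay at 0.10 ± 0.34, with FF1 the highest hen (147 CPM) and FF2 the lowest (74.9 CPM). The amine carriers of the same family overlapped as well, with the noradrenaline carrier SLC6A2 at 0.50 ± 0.39 and the serotonin carrier SLC6A4 at -0.49 ± 0.41. SLC7A1, the cationic amino acid carrier CAT1, was at 3.49 and 4.36 CPM in FF hens and 2.12, 3.82 and 2.34 CPM in RF hens (0.51 ± 0.52), from 9 to 17 counts a hen, and SLC38A1 had at most 19 counts in any hen.

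The genes of the amino acid response, which cells switch on when amino acids run short, lay on both sides of 0. Of 39 listed genes 15 were tested, 9 lay above 0 and 6 below, and the median was 0.31, where that of all genes was 0.01. The quasi-likelihood test called 0, with 0 at an unadjusted p under 0.05 in either direction, and 0 were called by DESeq2. The transfer RNA synthetase genes CARS and AARS lay at 0.85 ± 0.40 and 0.56 ± 0.30 and the transcription factor gene CEBPG at 0.66 ± 0.35 (edgeR quasi-likelihood, adjusted p = 0.561, 0.587 and 0.582). CARS was at 26.3 CPM in FF1 and 67.3 CPM in FF2, against 23.2 to 26.9 CPM in RF hens. CEBPG was at 87.2 CPM in FF1 and 124 CPM in FF2, against 52.6 to 94.4 CPM in RF hens. For CARS and CEBPG the groups thus overlapped, and only FF2 lay above all RF hens. Both FF hens lay above all RF hens in 4 of the 15 (26.7%, against 13.1% of all genes) and below them in 0 (against 13.9%). ASNS, 1 of the 4, lay at 0.46 ± 0.30, and the transcription factor gene ATF4, with overlapping groups, at 0.62 ± 0.41. In the direction of SLC7A5 and SLC38A2, the glutathione-degrading enzyme gene CHAC1 lay at -1.35 ± 0.76, the value of the list farthest from 0. The transcription factor gene CEBPB lay at -0.58 ± 0.59, and the groups overlapped for CHAC1 and CEBPB. ASNS, ATF4, CHAC1 and CEBPB were named after their values were seen.

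Among mitochondrial carriers, the ornithine carrier SLC25A15 was the member that differed most in the direction of higher values in FF. SLC25A15 brings ornithine into the mitochondrion, a step of the urea cycle in mammals. It stood at 13.9 and 24.0 CPM in FF hens and 3.30, 5.58 and 9.35 CPM in RF hens, from 68 and 66 counts against 14, 19 and 40. All RF hens lay below both FF hens, with means of 19.0 ± 7.11 CPM (SD, n = 2) and 6.07 ± 3.06 CPM (SD, n = 3). This was a 3.08-fold higher level in FF (log2 fold change 1.62 ± 0.49, edgeR quasi-likelihood, adjusted p = 0.432; DESeq2, adjusted p = 0.149), which ranged from 1.20 without FF2 to 2.09 without RF3.

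A further pair of mitochondrial carriers lay higher in both FF hens. With SLC25A15 this made 3 of the 11 SLC25 genes (27.3%, against 13.1% of all genes). SLC25A4, an ADP/ATP translocase of heart and muscle in mammals, was at 166 and 109 CPM in FF hens and 68.7, 90.8 and 98.8 CPM in RF hens (0.68 ± 0.30, edgeR quasi-likelihood, adjusted p = 0.545). SLC25A6, its near-identical relative, overlapped between groups, at 894 and 481 CPM in FF hens and 745, 952 and 791 CPM in RF hens (-0.27 ± 0.36, 0.12 without FF2), and how reads were shared between these paralogues is not stated in the labels used here. SLC25A13 (citrin), which exports aspartate from the mitochondrion for the malate-aspartate shuttle, was at 346 and 299 CPM in FF hens and 200, 172 and 288 CPM in RF hens (0.55 ± 0.31, edgeR quasi-likelihood, adjusted p = 0.604). RF3 came close to FF2, and without RF3 the log2 fold change was 0.80.

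SLC25A26, which brings the methyl donor S-adenosylmethionine into the mitochondrion, lay lower in FF, at 5.54 and 2.91 CPM against 7.06, 7.64 and 13.1 CPM (-1.09 ± 0.50, edgeR quasi-likelihood, adjusted p = 0.555), with only 27 and 8 counts in the FF hens. It lay at -0.73 without FF2 and at -0.75 without RF3. The phosphate carrier SLC25A3 was at 301 and 310 CPM in FF hens and 254 to 358 CPM in RF hens (0.04 ± 0.28). Over the 11 SLC25 genes 5 lay above 0 and 6 below, with a median of -0.10. Both FF hens lay below all RF hens in 2 of them (18.2%, against 13.9% of all genes).

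The hexose carriers were the group closest to 0. All 5 sugar carriers had log2 fold changes between -0.08 and 0.24, their median was 4.38e-04, and 0 had groups that did not overlap. SLC2A2 (GLUT2), through which hepatocytes exchange glucose with blood, was at 444 and 270 CPM in FF hens and 506, 354 and 272 CPM in RF hens (-0.08 ± 0.38, edgeR quasi-likelihood, adjusted p = 0.953). The FF values spanned nearly the same range as the RF values. SLC2A1 (GLUT1) was at 27.7 and 13.1 CPM in FF hens and 24.2, 24.7 and 13.1 CPM in RF hens, and SLC2A3 (GLUT3) at 15.9996 and 12.7 CPM against 11.3, 16.2 and 9.35 CPM. SLC2A8, an intracellular hexose carrier, and SLC37A3, of the glucose-6-phosphate carrier family, lay at 0.09 ± 0.36 and -0.04 ± 0.39. The median over these genes was -0.49 without FF1 and 0.40 without FF2, so it depended on which FF hen was kept.

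Enzymes that act on sugars after uptake lay above 0 without passing. Of 30 listed genes 8 were tested. All 8 had a log2 fold change above 0, where 50.6% of all genes did, and the median was 0.30. Both FF hens lay above all RF hens in 1 of the 8 (12.5%, against 13.1% of all genes). The quasi-likelihood test called 0, with 0 at an unadjusted p under 0.05, and DESeq2 also called 0. PGM2, which interconverts sugar phosphates, was at 151 and 138 CPM in FF hens and 74.6, 35.5 and 109 CPM in RF hens (0.98 ± 0.43, edgeR quasi-likelihood, adjusted p = 0.544). The gluconeogenic enzyme FBP1 lay at 0.42 ± 0.35, with 2159 CPM in FF1, 3728 CPM in FF2 and 1945 to 2589 CPM in RF hens. The galactose kinase relative GALK2 lay at 0.35 ± 0.33, with 57.2 CPM in FF1, 107 CPM in FF2 and 57.3 to 74.8 CPM in RF hens. For these 2 genes only FF2 lay above the RF hens. FF1 lay below the RF mean for FBP1, GALK2, PGM1 and GNE and above it for PGM2, UGP2, PFKP and HK1. FF2 lay above the RF mean for all but HK1, so the shared direction rested largely on FF2. PGM1, GNE, UGP2, PFKP and HK1 were named after their values were seen.

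The zinc carriers lay slightly lower in FF. All 5 had a log2 fold change below 0 (median -0.34), although 2 were above 0 with library totals as the only scaling and 1 was above 0 without FF2 or without RF1. In 3 of the 5 (SLC30A5, SLC39A13 and SLC39A9) both FF hens were below all RF hens, where 13.9% of all genes were. In the GRCg7b annotation SLC39A9 overlaps ERH, and SLC39A13 overlaps MYBPC3 and SPI1. The part of these neighbours in the values of SLC39A9 and SLC39A13 was not tested. SLC30A5, which moves zinc into the secretory pathway, was at 49.8 and 51.6 CPM in FF hens and 67.8, 70.2 and 57.0 CPM in RF hens (-0.36 ± 0.25, edgeR quasi-likelihood, adjusted p = 0.667). SLC39A13, which releases zinc from the secretory pathway to the cytosol, was at 56.4 and 52.4 CPM in FF hens and 67.8, 64.6 and 74.8 CPM in RF hens (-0.34 ± 0.24). SLC39A9, a zinc carrier of the Golgi, was at 151 and 98.5 CPM in FF hens and 160, 160 and 184 CPM in RF hens (-0.43 ± 0.29, -0.15 without FF2). SLC30A6, the partner with which SLC30A5 forms a working carrier, did not share the gap, at 19.3 and 21.1 CPM against 20.0 to 23.4 CPM (-0.08 ± 0.27).

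Of 34 listed metal handling genes 13 were tested, of which 4 lay above 0 and 9 below, with a median of -0.34. Both FF hens lay below all RF hens in 7 of the 13 (53.8%, against 13.9% of all genes) and above them in 1 (7.69%, against 13.1%). By the quasi-likelihood test 0 passed and 2 had an unadjusted p under 0.05, both lower in FF (15.4% of the list, against 4.94% of all genes), and DESeq2 called the same 2 lower (against 1.11% of all genes). These were the zinc-binding metallothioneins MT3 and MT4 at -2.84 ± 0.86 and -2.49 ± 0.85 (edgeR quasi-likelihood, adjusted p = 0.431 and 0.469; DESeq2, adjusted p = 0.00951 and 0.0307). RF2 had the highest values of both (226 CPM of MT3 and 7304 CPM of MT4), and it was the highest hen for 1 of the 5 zinc carriers, SLC30A5. The haem-degrading enzyme HMOX1 lay at -0.59 ± 0.29.

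Carriers of iron and related metals overlapped between groups. The iron exporter SLC40A1 (ferroportin) was at 365 and 314 CPM in FF hens and 389, 360 and 498 CPM in RF hens (-0.29 ± 0.29). SLC11A1 (NRAMP1), which pumps metals out of the phagosomes of macrophages, was at 35.3 CPM in FF1, 7.27 CPM in FF2 and 30.8, 54.9 and 37.2 CPM in RF1, RF2 and RF3 (-0.91 ± 0.59; -0.20 without FF2 and -2.49 without FF1). The 4 macrophage markers measured of 8 listed (CD74, MARCO, LYZ and TIMD4), all above 0, summed to 2813 CPM in FF1, 1821 CPM in FF2 and 2488, 4203 and 3013 CPM in RF1, RF2 and RF3. FF2 was the lowest and RF2 the highest hen in both measures, and the part of macrophages in the SLC11A1 values was not tested.

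Among the other ion carriers SLC9A8, a sodium-proton exchanger of the Golgi, lay higher in FF. It was at 68.9 CPM in FF1 and 129 CPM in FF2, against 52.5, 51.7 and 60.1 CPM in RF hens, which on the log2 scale was 0.85 ± 0.32 by edgeR's quasi-likelihood test (adjusted p = 0.503). FF1 lay just above the highest RF hen, and the value was 0.34 without FF2 and 1.23 without FF1. SLC4A2, a chloride-bicarbonate exchanger of hepatocyte and bile duct membranes, was at 139 CPM in FF1 and 40.7 CPM in FF2, with 133, 187 and 148 CPM in RF hens (-0.79 ± 0.49, -0.15 without FF2). SLC20A2, a phosphate carrier, and SLC26A5, the anion carrier relative prestin, lay at -0.44 ± 0.33 and -0.28 ± 0.35. Of the 11 ion carriers 4 lay above 0 and 7 below, with a median of -0.29, which was -0.74 without FF1 and -0.017 without FF2.

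Of 7 nucleotide sugar carriers, SLC35C1 and SLC35C2 lay lower in both FF hens than in any RF hen (28.6%, against 13.9% of all genes). SLC35C1, which supplies GDP-fucose to the Golgi for fucosylation, was at 109 and 70.5 CPM in FF hens and 147, 121 and 148 CPM in RF hens (-0.63 ± 0.29, edgeR quasi-likelihood, adjusted p = 0.561). Its relative SLC35C2 was at 181 and 143 CPM in FF hens and 228, 366 and 311 CPM in RF hens (-0.90 ± 0.32, edgeR quasi-likelihood, adjusted p = 0.485). With each hen left out SLC35C2 stayed between -1.09 and -0.73. The other 5 overlapped, with SLC35B1, which brings ATP into the endoplasmic reticulum, at -0.17 ± 0.37, SLC35A3, a UDP-N-acetylglucosamine carrier, at 0.51 ± 0.32 and SLC35G2, with 10 to 18 counts a hen, at 0.61 ± 0.59.

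Vitamin carriers pointed in different directions. SLC19A1, the reduced folate carrier, was at 466 CPM in FF1 and 276 CPM in FF2, with 229, 196 and 281 CPM in RF hens (0.66 ± 0.33, edgeR quasi-likelihood, adjusted p = 0.577). FF1 was well above all hens and FF2 lay inside the RF range, so the value was 0.22 without FF1 and 0.997 without FF2. In the GRCg7b annotation this gene overlaps COL18A1, which was at 654 CPM in FF1 and 120 CPM in FF2. The part of COL18A1 in the SLC19A1 values of either group was not tested. SLC46A1, a proton-coupled folate carrier, differed more between the FF hens (40.2 and 7.999 CPM) than between the groups (-0.49 ± 0.60), and was at 0.23 without FF2. SLC46A3, a lysosomal relative, lay at 0.14 ± 0.39. SLC23A2, which takes up ascorbate, was at 8.82 and 6.91 CPM in FF hens and 14.1, 8.81 and 18.0 CPM in RF hens (-0.79 ± 0.42). The scaffold gene SLC9A3R1 was at 475 and 178 CPM in FF hens and 295 to 410 CPM in RF hens (-0.08 ± 0.43).

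Across the 63 genes FF2 was the hen with the lowest level in 33 (52.4%), where it was the lowest in 30.8% of all genes tested. It was the highest in 7 (11.1%), against 31.0% of all genes. FF1 was the highest hen in 18 carriers and the lowest in 8. Relative to the mean of the 5 hens, the members averaged 0.11 in FF1 and -0.38 in FF2 on the log2 scale, and 0.03, 0.06 and 0.18 in RF1, RF2 and RF3. The gap between the FF hens was thus wider than any gap among RF hens. It was widest in SLC11A1, SLC46A1 and SLC4A2, for which FF1 exceeded FF2 by 2.13, 2.19 and 1.75 on a log2(CPM + 1) scale.

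**Figure D3:**
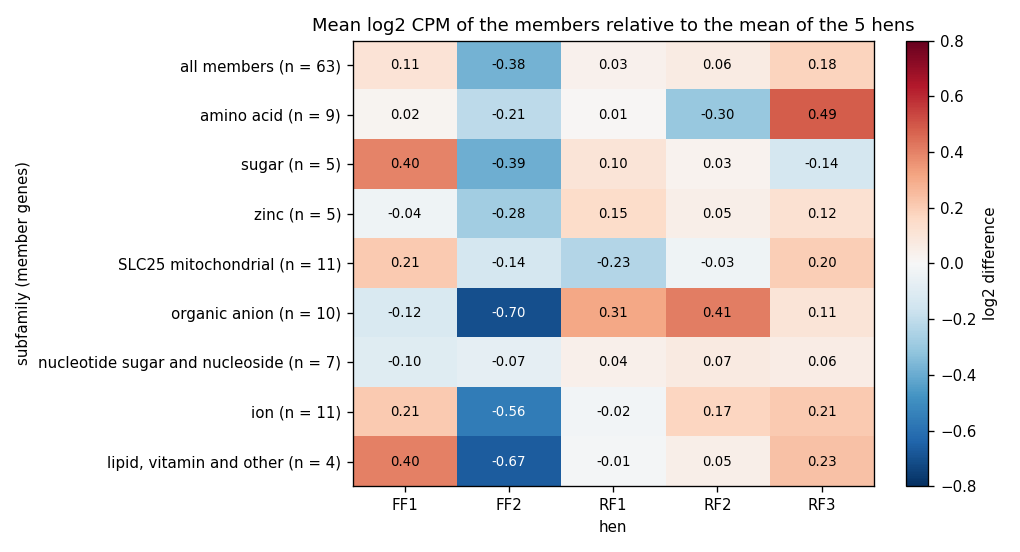
Mean log2 CPM of the members of each subfamily in each hen, relative to the mean of the 5 hens (colour and number). Organic anion carriers were below the mean in FF1 (-0.12) and FF2 (-0.70) and above it in all RF hens, sugar carriers were at 0.40 in FF1 and -0.39 in FF2, and amino acid carriers were highest in RF3 (0.49).

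By subfamily, the organic anion, zinc and nucleotide sugar groups had both FF hens below all RF hens in their mean level. For organic anion carriers the means were -0.12 and -0.70 in FF hens and 0.31, 0.41 and 0.11 in RF hens. The zinc carriers were at -0.04 and -0.28 in FF hens and 0.15, 0.05 and 0.12 in RF hens, and the nucleotide sugar carriers at -0.10 and -0.07 against 0.04, 0.07 and 0.06. In the amino acid, sugar, SLC25 and ion groups the FF hens fell on both sides of RF hens.

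The ATP-driven ABC transporters, which pump lipids, bile components and drugs, were compared as the other large family of liver transporters. Of 37 listed genes 8 were tested, of which 3 lay above 0 and 5 below, with a median of -0.15. Of these, 0 were called by either tool, where DESeq2 called 0.72% of all genes higher and 1.11% lower. Both FF hens lay above all RF hens in 2 (25%, against 13.1% of all genes) and below them in 2 (25%, against 13.9%). An unadjusted p under 0.05 by the quasi-likelihood test was reached by 1, lower in FF (12.5%, against 4.94% of all genes). This was ABCD2, which brings very long-chain fatty acids into peroxisomes, at 169 and 134 CPM in FF hens and 391, 235 and 470 CPM in RF hens (-1.27 ± 0.37, edgeR quasi-likelihood, adjusted p = 0.427). ABCA1, the cholesterol exporter, lay at -0.52 ± 0.29, and ABCE1, which recycles ribosomes and is no membrane pump, at 0.56 ± 0.27.

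**Figure D4:**
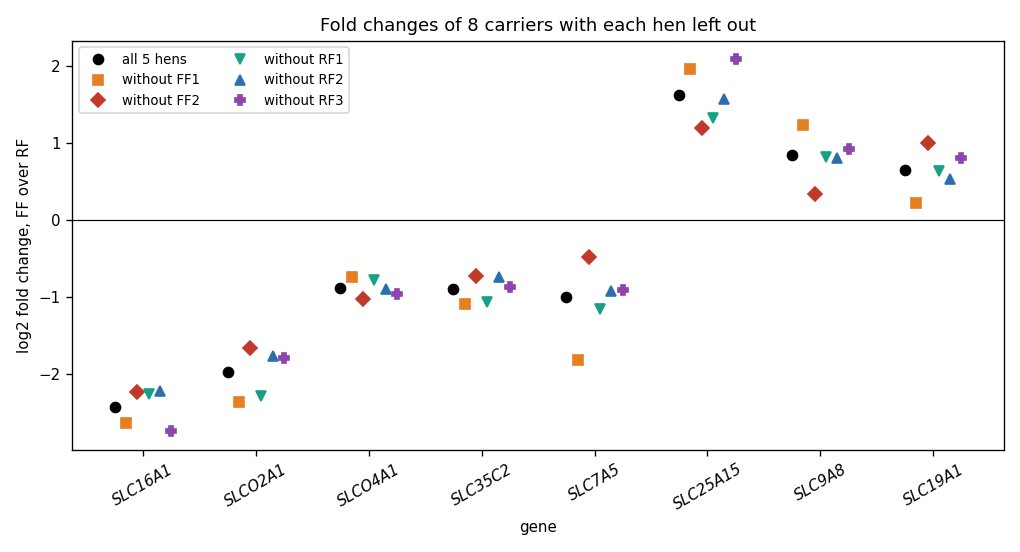
Log2 fold change of FF over RF for 8 carriers with all 5 hens (black) and with each hen left out (colours). SLC16A1 stays between -2.75 and -2.22, while SLC7A5 ranges from -1.82 without FF1 to -0.48 without FF2 and SLC19A1 from 0.22 without FF1 to 0.997 without FF2.

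The direction of the 8 carriers in the plot of values with each hen left out was kept in all 12 alternative settings. Apart from SLC19A1, these were the carriers at an unadjusted p under 0.05 in the main analysis, and the settings reused the same hens. A kept direction is therefore no independent support, and SLC10A7 (-0.25) and SLC40A1 (-0.29) kept theirs in all 12 as well. The adjusted p-values of the 8 carriers were wide-ranging. For SLC16A1 these ran from 3.93e-05 (DESeq2) to 0.669 (edgeR quasi-likelihood without RF1), and for SLCO2A1 from 0.00486 to 0.642. The markers of the biliary epithelium (5 of 6 above 0, KRT7 listed at 0) summed to 199 and 106 CPM in FF hens and 199 to 249 CPM in RF hens, and those of stellate cells or fibroblasts (5 of 7 measured, all above 0) to 1264 and 537 CPM against 505 to 751 CPM. Erythrocyte markers (5 of 8 measured) summed to 3599 and 3617 CPM in FF hens and 1084 to 4150 CPM in RF hens, with SLC4A1, the anion exchanger of red cells, listed at 0, and lymphocyte markers (8 of 8, all above 0) to 161 and 259 CPM against 136 to 199 CPM. Their part in the carriers' values was not tested.

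The count rule left out 25 further SLC entries, and 13 of these were listed at 0 in all hens. Liver genes that read as 0 in this table include ALB, so a 0 is not read as absence of the transcript. Those at 0 included the fatty acid carrier SLC27A1, the organic anion carrier SLC22A7 and the thyroid hormone carrier SLCO1C1. The other 12 had at most 11 counts in a hen, that being SLC24A5 in FF2. Just inside the limit, the second-highest hen had 11 counts of SLC16A7 and 12 of SLC38A1, and just outside it had 8 of SLC24A5 and 6 of SLC6A9. Of the 63 members 56 had at least 10 counts in all 5 hens, and 0 reached that count in hens of only 1 group. The GRCg7b annotation holds 314 such SLC symbols against 88 in the count table, so the subfamilies are described only in part.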

How the data were processed

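Liver RNA of 2 FF and 3 RF hens was sequenced from strand-specific libraries, per the labels' protocols. The authors' deposited table holds estimated counts per gene symbol, 1 column per hen, matched by the hen numbers in its header. FastQC, TopHat2 2.0.13, Cuffdiff 2.2.1, edgeR and the build galGal4 are named, per the submitters' processing notes. The annotation, the treatment of multi-mapping reads and the strand used in counting were not given in the sources used here, so overlapping genes and paralogues are uncertain. In the GRCg7b annotation (a build other than galGal4, used for names and neighbours only) all 63 members matched by symbol or synonym and 31 overlap another gene, 5 of them a tested gene. No sequences are shown.

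Values that were not whole (51 of 6286 entries, 0 of them members) were rounded. Genes were kept by filterByExpr (minimum count 10), which left 4309 of 6286 entries and all 63 members. Tests used edgeR 4.0.16 (TMM, glmQLFit, then a two-sided glmQLFTest on the feeding group, with no other term) in R 4.3.3, with Benjamini-Hochberg adjustment over all genes and a threshold of 0.05. The SE is the log2 fold change divided by the root of the F statistic. Alternatives were DESeq2 1.42.0, its size factors, library totals alone, limma-voom (limma 3.58.1), no filter, a filter of 5 CPM in 2 hens, the replicate block, and each hen left out. Simulated FF against RF data held 10 sets of 4309 genes, with 200 changed in each set. In them the quasi-likelihood test recovered 15.8% of 2-fold, 84.9% of 4-fold and 97.7% of 8-fold changes, and 3.15% of its calls were false. The simulation held no hen that stood apart, and each gene varied only as the trend for its level. The 200 planted changes also eased the adjusted threshold, where 2 genes were called in the hens. These rates are therefore no measure of what the test could find in the 5 hens.

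The members, subfamilies, gene lists and rule for named genes were chosen with earlier results of these data known. The rule names, per subfamily, up to 4 members with the smallest p and up to 3 with the highest level, members of non-overlapping groups with an absolute log2 fold change of at least 1, a list of key carriers, and up to 3 genes per partner list. SLC10A7, SLC16A7, SLC16A9, SLC17A5, SLC22A4 and SLC38A1, with COL18A1, fell outside this rule and were named after their values were seen. One result on a further gene is not reported here.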

Additional observations from a re-analysis of the deposited data

How the results depend on the processing

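The 5 hens limit what could be called. Genes called over the whole table numbered 2 in the main analysis, 79 by DESeq2, 6 without a filter, 6 with the replicate block, 1 with the 5 CPM filter, and 0 to 8 with single hens left out. Carriers called numbered 2 by DESeq2 (SLC16A1 at -2.43 and SLCO2A1 at -1.97) and 0 in every other setting run. Carriers at an unadjusted p under 0.05 numbered 2 higher and 5 lower, 1 and 2 with the replicate block, and 1 to 3 higher and 3 to 19 lower with single hens left out. The 19 came without FF1, where FF2 alone stood for FF and was assumed to vary like the RF hens, and where 12.9% of all genes lay lower and 9.90% higher, against 4.94% and 4.41% in the main analysis. With library totals alone, all genes at that p were 286 higher and 144 lower, against 190 and 213 in the main analysis. All genes at that p were 107 higher and 136 lower with the replicate block. They were 106 and 129 without RF1, 99 and 137 without RF2, and 178 and 207 without RF3. Fewer carriers at that p with the block or without RF1 came with fewer such genes in the whole table. Without RF2 the whole table also held fewer, while carriers numbered 1 higher and 5 lower.

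Subfamily medians with single hens left out ranged from -0.43 to 0.12 for amino acid, -0.49 to 0.40 for sugar, -0.41 to -0.15 for zinc, -0.98 to -0.31 for organic anion and -0.74 to -0.017 for ion carriers. Counts of non-overlapping carriers, added after seeing the data, were 5 to 21 above and 16 to 38 below with single hens left out, and 7 above and 8 below with library totals alone. Without RF1, RF2 and RF3 in turn, 30.2%, 27.0% and 28.6% of the carriers lay below, against 18.3%, 18.0% and 21.5% of all genes. The shares above were 7.94%, 12.7% and 15.9%, against 17.9%, 17.2% and 20.7%. Without FF2, 33.3% of the carriers lay above and 25.4% below, against 26.2% and 25.6% of all genes. Without FF1 these were 15.9% and 60.3% against 35.8% and 35.3%, and with library totals alone 11.1% and 12.7% against 19.1% and 9.42%.

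The replicate numbers name different hens, so the block pairs hens by number only. Across genes, the deviations from the group mean gave r = -0.14 for FF1 and RF1 and r = -0.36 for FF2 and RF2. With 2 FF hens, the deviations of FF1 and FF2 are exact opposites, so these values cannot show whether hens of the same number shared a condition.

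No carrier was called in the main analysis, so a change of sign could only concern an uncalled difference. Of 526 values of named carriers under alternatives, 34 changed sign, and the cause was not tested. With library totals alone these were SLC2A2 (0.030), SLC30A6 (0.020), SLC37A3 (0.075), SLC7A2 (0.046) and SLC9A3R1 (0.027), and with limma-voom SLC7A2 (0.051). Without a filter SLC2A1 lay at -3.01e-03, and with the replicate block SLC2A1 at -0.34, SLC37A3 at 0.12, SLC38A4 at 0.026 and SLC7A2 at 0.46. With single hens left out, the values ranged from -0.060 to 0.20 for SLC25A3, -0.79 to 0.12 for SLC25A6, -0.74 to 0.066 for SLC26A5, -0.66 to 0.44 for SLC2A1, -0.49 to 0.25 for SLC2A2, -0.45 to 0.46 for SLC2A8, -0.84 to 0.29 for SLC35B1, -0.11 to 1.16 for SLC35G2, -0.64 to 0.37 for SLC37A3, -0.61 to 0.030 for SLC38A4, -2.11 to 0.23 for SLC46A1, -0.43 to 0.54 for SLC46A3, -0.47 to 0.52 for SLC6A6, -0.43 to 0.44 for SLC7A2 and -0.97 to 0.47 for SLC9A3R1.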
